A study of Mus musculus with 16 samples.

Results

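The genes described here are steroid dehydrogenases and reductases of mouse liver, led by Hsd3b5, whose transcript was abundant in male livers and scarce in female WT livers. They were taken from a list of 10 genes, of which 8 had a probe among the deposited values, with 18 probes in all. Of these 8, 7 were detected often enough to be tested, among 9906 tested genes of 19057 genes with a probe. Hsd3b3 was not detected on any array, and no probe was listed for Hsd17b13 and Srd5a1, which are named only.

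RNA from male and female mouse livers was measured on Illumina Ref-6 v2 arrays, 1 array per sample, to compare hepatic gene expression between the sexes. All animals were 2 months old. The groups were 3 male and 5 female wild-type (WT) livers and 3 male and 5 female livers labelled hs-RXRa-Dex4-/-, called hs-KO here. RXRα is the retinoid X receptor alpha, and the paper describes mice whose hepatocytes lack its DNA-binding domain, not the whole receptor. Intact RXRα remains in the other cells of such livers, and the labels name no Cre driver or strain. Nothing says that samples were pooled or which animals shared a litter, so the p-values measure the spread between these samples.

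Steroid hormones are inactivated, reactivated and interconverted in hepatocytes by hydroxysteroid dehydrogenases, which move hydrogen on and off the steroid ring with NAD or NADP as partner, and by cytochrome P450 enzymes such as Cyp17a1. In rodents the liver sees growth hormone in pulses in males and at steadier levels in females, and many steroid-metabolizing genes are known to follow that pattern. The 3β-hydroxysteroid dehydrogenases form a cluster of closely related genes in the mouse, of which Hsd3b5 is known as a male liver isoform that acts as a ketosteroid reductase.

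Intensities were background-subtracted and normalized to 1 distribution by the authors, so all arrays had nearly the same range, and 8725 to 8984 genes were detected on each. A probe counted as detected above an intensity of about 21, and levels were compared as log2(intensity + 16), on which differences of dim genes are understated. Xist, the RNA of the silenced X chromosome, was detected on all 10 female arrays and on no male array. The single Rxra probe read 47.7 to 109 over all arrays and was not lower in hs-KO livers (log2 difference 0.33 in males, adjusted p = 0.547, and 0.17 in females, adjusted p = 0.817, limma), but where it lies relative to the deleted exon is not given in the sources used here, so it does not check the genotype. All 6 hepatocyte markers were detected on every array. Female WT 4 had the lowest mean correlation with the other arrays of its group (0.970), and results that rest on it are given with and without it. Groups were compared by limma with p adjusted over the 9906 genes, and a gene was called at an adjusted p under 0.05.

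Few of the genes were called. In WT livers 1 of the 7 was higher in males and 0 were lower, while 3.71% of all tested genes were called in either direction and 1.61% were called higher. At an unadjusted p under 0.05 the counts were 1 higher and 3 lower, and 17.4% of all genes passed that threshold. In hs-KO livers 0 of 7 were called between the sexes (limma, adjusted p), against 2.36% of all genes. At the unadjusted threshold, which 14.0% of all genes passed, 1 was higher and 3 were lower in males. Between hs-KO and WT males 0 of 7 were called, against 1.5% of all genes, with 1 lower at the unadjusted threshold, which 14.3% of genes passed. Between hs-KO and WT females 1 of 7 was called higher, against 2.37% in either direction and 1.29% higher, and at the unadjusted threshold, which 12.3% of genes passed, 1 was lower as well. Hsd3b5 was the gene called both times. The median log2 difference of the 7 genes was -0.25 for male minus female in WT, beside -0.02 for all genes, and -0.27 beside 0.01 in hs-KO livers. Apart from Hsd3b5, the 6 other genes had male minus female values below 0 in both genotypes by their brightest probes, but the signs of Hsd3b2 and, by its dim probe, Hsd11b1 turned with other probes, and in WT those of Hsd3b2 and Hsd17b2 turned when single arrays were left out.

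Hsd3b5, the ketosteroid reductase, carried the widest difference. In male WT livers its intensity was 13132, 12902 and 14937. In female WT livers it was 589.8, 76.5, 211, 23.7 and 26.7. Every male array lay far above every female array, and the female WT arrays spread over 24.9-fold among themselves, from just above the detection threshold upwards. In male hs-KO livers it read 14890.2, 14737 and 17299, and in female hs-KO livers 2964, 3671, 3311, 2499 and 3750.2. The female hs-KO arrays formed a narrow band, spread over 1.5-fold, between the female WT and the male arrays without touching either.

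**Figure D1:**
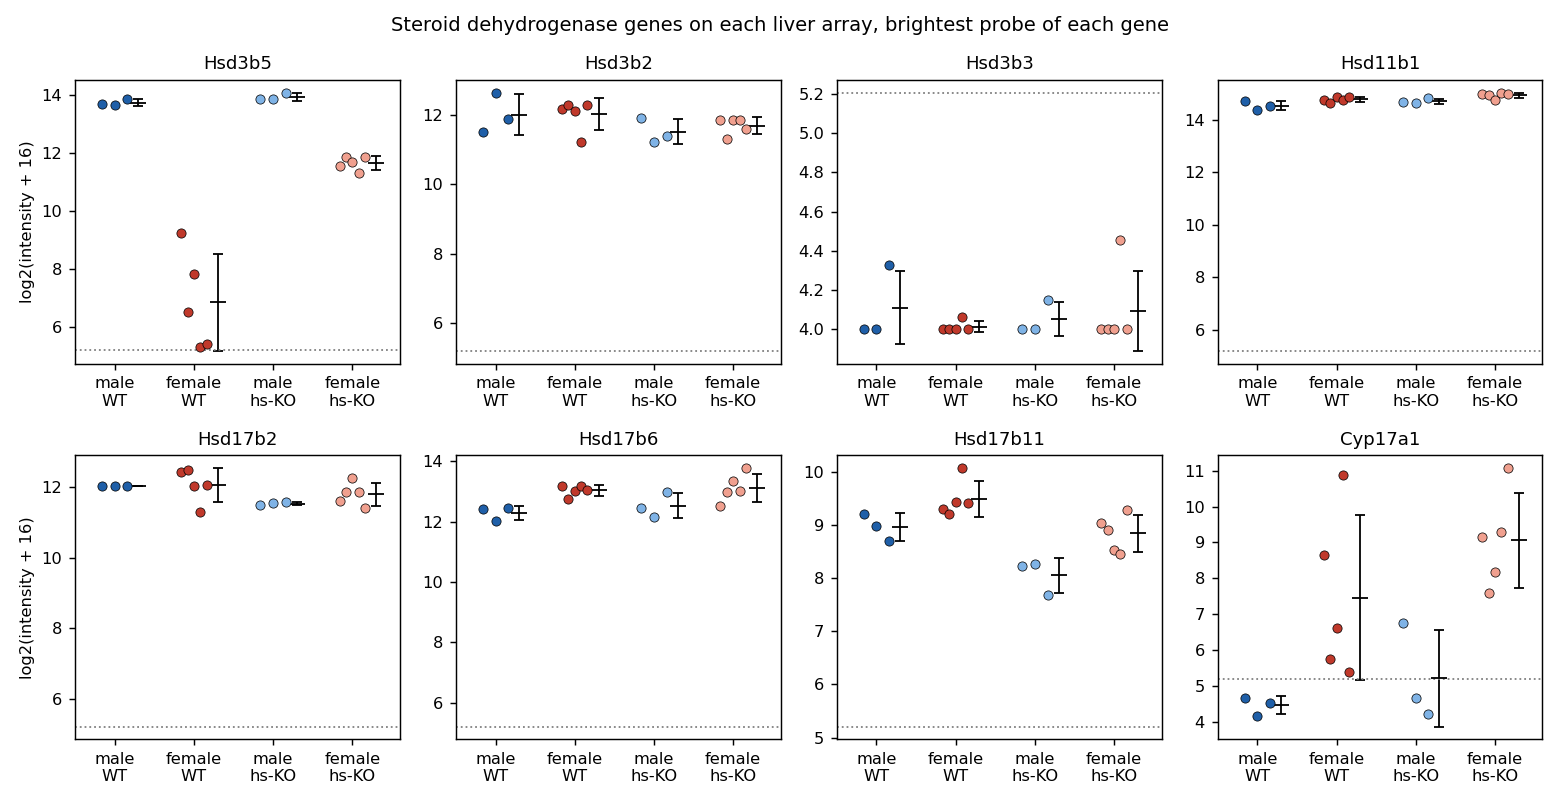
Level of the 8 genes with a probe on each liver array, as log2(intensity + 16) of the brightest probe of each gene, in the 4 groups, with the mean and SD of each group at its right. The dotted line is the detection threshold, each panel has its own vertical range, and the hs-KO female arrays of Hsd3b5 lie between the female WT arrays and both male groups.

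In order of mean intensity, male hs-KO livers had 15642 ± 1437 (SD, n = 3), male WT livers 13657 ± 1115 (SD, n = 3), female hs-KO livers 3239 ± 518 (SD, n = 5) and female WT livers 185 ± 238 (SD, n = 5). Only the ranges of the male groups overlapped, and in WT the sexes did not overlap for 11.5% of all genes. In WT livers males were higher by 6.87 on the log2 scale (standard error 0.627, adjusted p = 2.73e-06), a 117-fold difference with a 95% interval of 46.6 to 294, and 3 of 9906 genes differed more in that direction. Of the 6 hepatocyte markers 1, Alb, was called lower in male than in female WT livers (limma, adjusted p = 0.0236, up to 0.144 without single arrays). Among markers of other liver cells, the summed level of the 6 sinusoidal endothelium genes was 6233 to 7441 in male and 7379 to 9267 in female WT livers. Of 5 tested, 1 was called, the adhesion molecule Pecam1, and no other passed the unadjusted threshold. Its male minus female value was -0.73 (limma, adjusted p = 0.0397). The call held in 6 of the 16 fits that each left out 1 array (adjusted p up to 0.155). In WT livers 3.71% of all genes were called in either direction. The median log2 difference of these endothelial genes was -0.28, beside -0.02 for all genes. The 6 stellate cell genes summed to 7792 to 8385 in male and 9448 to 10601 in female WT livers, but their members differed in direction. Of 5 tested, 0 were called, and 1 was higher and 1 lower at the unadjusted threshold, which 17.4% of all genes passed. Their median log2 difference was -0.08, beside -0.02 for all genes. The part of hepatocytes, endothelial cells and stellate cells in the result was not tested. In hs-KO livers the male minus female value was 2.28 (standard error 0.627), or 4.85-fold with an interval of 1.93 to 12.2. That value did not pass over all genes (adjusted p = 0.075), although the groups did not overlap, which was so for 13.1% of all genes, and an exact permutation test of this gene alone gave p = 0.0179, two-sided, the smallest that 3 against 5 arrays allow. It passed without female WT 1 (adjusted p = 0.00582) or female WT 4 (adjusted p = 0.0382), arrays that enter it only through the shared estimate of spread, and with the hs-KO arrays alone (adjusted p = 4.72e-05). In hs-KO livers the sinusoidal endothelium genes summed to 6658 to 7596 in males and 7990.1 to 9222 in females. Of 5 tested, 1 was called, again Pecam1, and no other passed the unadjusted threshold. Its male minus female value was -0.79 (limma, adjusted p = 0.0332), a call that held in 12 of 16 such fits (adjusted p up to 0.157). Here 2.36% of all genes were called in either direction. The part of the endothelial genes in this difference was not tested either.

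The genotype difference of Hsd3b5 lay in females. Female hs-KO livers were above female WT livers by 4.79 (standard error 0.543, adjusted p = 0.000125), which is 27.6-fold with an interval of 12.4 to 61.3. The groups did not overlap, as was so for 3.89% of all genes. In males the hs-KO minus WT value was 0.19 (interval -1.29 to 1.68, adjusted p = 0.925), with overlapping arrays. That interval rests on 1 spread shared by all groups. The log2 SD was 0.115 in male WT and 0.129 in male hs-KO livers, against 1.67 in female WT livers. The interaction, the sex difference in hs-KO minus that in WT, was -4.59 (standard error 0.887), the lowest value of all tested genes. Its adjusted p was 0.0891, and 0 of the 7 genes and 0.0606% of all genes were called in this term, with 1 of the 7 and 8.6% of all genes at the unadjusted threshold. The adjusted p was 0.000773 without female WT 1. In a tissue sample, fewer cells of a type and less RNA per cell cannot be told apart. Among markers of other cells, the summed level of the 3 exocrine pancreas genes with a probe was 16019 to 20831 in female WT and 23624 to 31746 in female hs-KO livers, and it rose likewise in males, from 14680 to 17190 in WT to 22446 to 26898 in hs-KO. Only 2 of them were tested, and 1, the amylase Amy2a5, was called higher in each sex (limma, adjusted p = 0.0415 in males and 0.0177 in females). The other did not pass the unadjusted threshold in either sex. Of all genes, 1.5% in males and 2.37% in females were called in either direction between the genotypes. The Amy2a5 call held in 5 (males) and 15 (females) of the 16 fits that each left out 1 array. The part of this signal in the result was not tested. The summed level of the 6 sinusoidal endothelium genes was 7379 to 9267 in female WT and 7990.1 to 9222 in female hs-KO livers, against 6233 to 7441 in male WT livers, and their part in the result was not tested.

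Hsd3b5 (NCBI gene 15496), Hsd3b2 (NCBI gene 15493) and Hsd3b3 (NCBI gene 15494) follow each other on mouse chromosome 3 with no other protein-coding gene between them in the RefSeq annotation of the assembly named below. Their promoters are shown because neighbours of 1 family gave unlike signals, from 250 bases before to 50 bases after the start of transcription, as in RefSeq on GRCm38.p6. Capitals mark the longest run that Hsd3b5 shares with Hsd3b3 (24 bases) and the longest that it shares with Hsd3b2 (19 bases).
Hsd3b5, chr3:98645485-98645784, minus strand: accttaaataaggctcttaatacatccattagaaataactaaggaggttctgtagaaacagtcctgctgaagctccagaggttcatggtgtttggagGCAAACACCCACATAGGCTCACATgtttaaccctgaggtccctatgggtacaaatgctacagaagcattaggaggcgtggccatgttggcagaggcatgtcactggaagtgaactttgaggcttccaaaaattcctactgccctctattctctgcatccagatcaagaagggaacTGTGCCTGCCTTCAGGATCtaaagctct
Hsd3b3, chr3:98763079-98763378, minus strand: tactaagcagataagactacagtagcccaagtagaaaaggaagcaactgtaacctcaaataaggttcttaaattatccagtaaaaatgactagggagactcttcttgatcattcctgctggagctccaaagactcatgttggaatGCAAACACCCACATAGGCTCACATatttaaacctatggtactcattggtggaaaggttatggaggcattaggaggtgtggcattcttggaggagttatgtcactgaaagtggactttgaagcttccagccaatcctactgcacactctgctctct
Hsd3b2, chr3:98724494-98724793, minus strand: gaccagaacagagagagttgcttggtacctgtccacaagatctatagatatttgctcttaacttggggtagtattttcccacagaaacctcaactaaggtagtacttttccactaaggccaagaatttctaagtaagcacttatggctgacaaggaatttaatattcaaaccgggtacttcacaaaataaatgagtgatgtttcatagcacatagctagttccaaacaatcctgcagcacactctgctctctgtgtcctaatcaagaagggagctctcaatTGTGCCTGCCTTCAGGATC

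A local alignment paired 245 bases of the Hsd3b5 and Hsd3b3 promoters, of which 78.0% were identical, and the shared stretch began 51 bases further into the Hsd3b3 window. With Hsd3b2 the alignment of Hsd3b5 held 72 pairs at the end of the window, 84.7% identical, and no bases before it were part of the alignment. Hsd3b2 and Hsd3b3 aligned over 33 pairs. The windows were searched on both strands for the STAT5 palindrome TTCNNNGAA, the nuclear receptor half-site AGGTCA and the TATA core TATAAA, and none of the 3 family promoters held any of them. Over 32851 mouse promoters of the same length, 8.30% held TTCNNNGAA, 16.3% AGGTCA and 13.6% TATAAA. Promoters of 8 of the 10 genes were in the table, and the only match among them was AGGTCA in that of Hsd17b13.

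Hsd3b2 belongs to the same family, and its probes disagreed. Of 6 probes, 4 were detected on at least 3 arrays. The brightest read 2878, 6369 and 3765 in male WT, 4635, 4979, 4427, 2358 and 4992 in female WT, 3839.8, 2385 and 2691 in male hs-KO and 3681, 2528, 3662, 3719.7 and 3050.2 in female hs-KO livers. All 4 groups overlapped, and the male minus female value was -0.01 in WT (interval -0.60 to 0.58, adjusted p = 0.991) and -0.18 in hs-KO livers (interval -0.77 to 0.41, adjusted p = 0.829).

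The second-brightest Hsd3b2 probe, ILMN_1214838, followed sex. It read 983, 982 and 1011 in male WT and 196, 278, 207, 168 and 224 in female WT livers. In hs-KO livers it read 897, 889 and 425 in males and 339, 377, 315, 320.0 and 447 in females. In WT livers the sexes were wide apart, and 11.5% of all genes had no overlap there by their brightest probes. In hs-KO livers the lowest male array fell below the highest female array. In a fit over all detected probes, added after the data had been seen because these probes differ, males were higher by 2.14 in WT (standard error 0.222, adjusted p = 1.2e-05) and by 0.94 in hs-KO livers (standard error 0.222, adjusted p = 0.0326). The female hs-KO arrays all lay above the female WT arrays, with a difference of 0.71 that did not pass (adjusted p = 0.0719). Between these groups 3.89% of all genes did not overlap by their brightest probes. Over the 16 arrays the log2 level of this probe correlated with that of Hsd3b5 with r = 0.838, against -0.234 for the brightest probe, a description over arrays of 4 groups. The remaining detected probes gave male minus female values of 0.29 and 0.79 in WT, and neither passed (adjusted p = 0.627 and 0.289). Members of this gene family are much alike, and whether a probe also reads a neighbour's transcript was not tested.

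**Figure D2:**
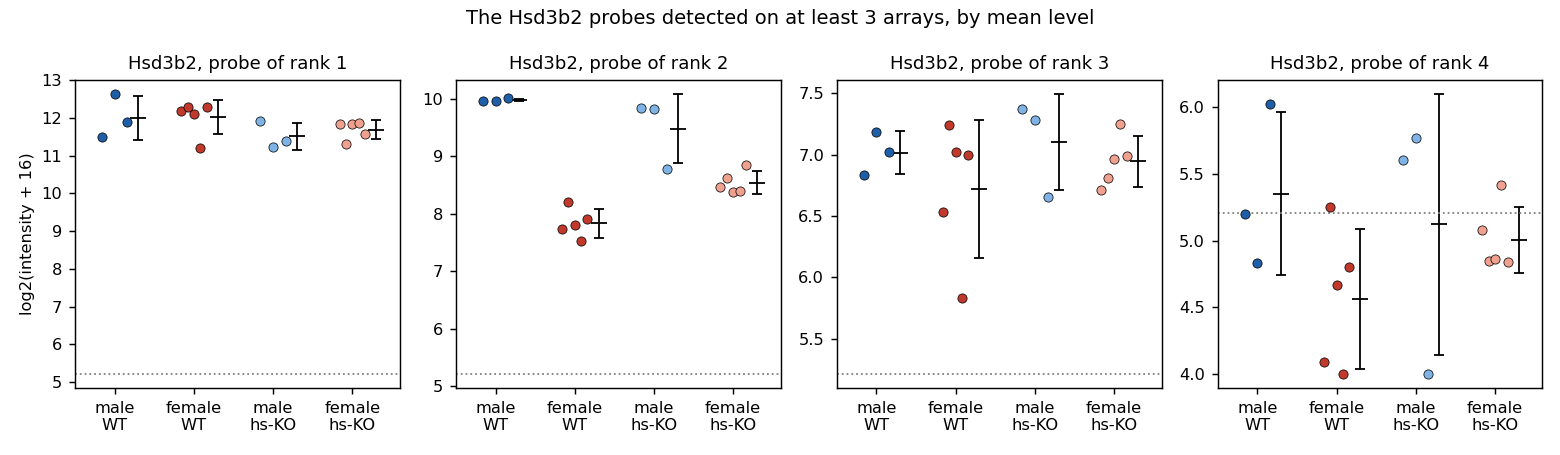
The 4 Hsd3b2 probes detected on at least 3 arrays, as log2(intensity + 16) on each array, ordered by mean level, with the mean and SD of each group and the detection threshold as a dotted line. The probe of rank 2, ILMN_1214838, separates male from female WT arrays, and the probe of rank 1 does not.

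Hsd3b3, a dehydrogenase and isomerase known from mouse liver and kidney, had 1 probe, which read -15.7 to 5.91 and stayed under the detection threshold on all 16 arrays. It gives no comparison. Hsd3b4 of the same family is described with the other dehydrogenases.

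Hsd11b1 makes active glucocorticoid from its inert keto form. Its brightest probe read 26534, 20871 and 23549 in male WT, 27603, 25399.8, 29352, 27441 and 30021 in female WT, 26102, 25029.7 and 28623 in male hs-KO and 31733, 31562, 27603, 33088 and 31733 in female hs-KO livers. Female means were above male means in both genotypes and the ranges overlapped. The male minus female value was -0.25 in WT (interval -0.52 to 0.02, adjusted p = 0.337) and -0.23 in hs-KO livers (interval -0.50 to 0.04, adjusted p = 0.451), and hs-KO minus WT was 0.17 in males (adjusted p = 0.602) and 0.16 in females (adjusted p = 0.665). Of 4 probes, 3 bright ones gave the same sign in each of these comparisons. The dim one, at 35.4 to 87.8, gave 0.50 in WT (adjusted p = 0.246) and 0.059 in hs-KO livers. By the bright probes ILMN_1214998 and ILMN_2774160 the sexes overlapped in WT but not in hs-KO livers. By their brightest probes 13.1% of all genes did not overlap there. Neither probe passed between the sexes in the limma fit over all detected probes (adjusted p = 0.267 and 0.225 in WT, 0.369 and 0.342 in hs-KO livers).

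Hsd17b2 oxidizes estradiol and testosterone to weaker steroids. It read 4153, 4141 and 4167 in male WT and 5491, 5718, 4136, 2478 and 4215 in female WT livers. The male WT arrays were nearly equal, with a coefficient of variation of 0.320%, and lay within the female range. In male hs-KO livers it read 2843, 2967 and 3041, each below every male WT array, and in female hs-KO livers 3098, 3738, 4915, 3713 and 2679. The hs-KO minus WT value was -0.49 in males (interval -1.05 to 0.07, adjusted p = 0.415) and -0.25 in females (interval -0.69 to 0.18, adjusted p = 0.725). An exact permutation test of the male groups gave p = 0.1, two-sided, the smallest that 3 against 3 arrays allow. Ranges that did not touch were found for 23.1% of all genes between the male groups.

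Hsd17b6 is an oxidative enzyme that returns androstanediol to the potent androgen dihydrotestosterone and also takes retinol as substrate. It read 5434, 4167 and 5549 in male WT and 9182, 6825, 8327, 9232 and 8482 in female WT livers. Every female WT array was above every male WT array, a separation in 1 direction or the other that held for 11.5% of all genes. In hs-KO livers it read 5614, 4568 and 7974 in males and 5866, 8137, 10306, 8170.1 and 13884 in females, with overlap. Male minus female was -0.74 in WT (interval -1.25 to -0.23, adjusted p = 0.109) and -0.59 in hs-KO livers (interval -1.10 to -0.08, adjusted p = 0.267), and neither passed over all genes. The WT groups gave an exact permutation p = 0.0179, two-sided. Between genotypes the values were 0.23 in males (adjusted p = 0.721) and 0.09 in females (adjusted p = 0.926).

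Hsd17b11 is a dehydrogenase of lipid droplets that oxidizes androgens at the 17β position. It read 577, 495 and 401 in male WT, 615, 578, 681, 1064 and 675 in female WT, 284, 295 and 189 in male hs-KO and 513, 466.3, 358, 336 and 613 in female hs-KO livers. Females were above males in both genotypes with no overlap, though in WT the closest male and female arrays were 577.1 and 577.9, and the male hs-KO arrays lay below all others. Groups that did not overlap were found for 11.5% of all genes between the sexes in WT and 13.1% in hs-KO livers, and for 23.1% between the male genotypes. The female WT array at 1064 is female WT 4. Male minus female was -0.52 in WT (adjusted p = 0.258) and -0.79 in hs-KO livers (interval -1.28 to -0.30, adjusted p = 0.102). The hs-KO minus WT value was -0.91 in males (interval -1.46 to -0.36, adjusted p = 0.104) and -0.64 in females (interval -1.07 to -0.21, adjusted p = 0.135), neither of which passed over all genes. Without female WT 4 the sex difference was -0.38 in WT (adjusted p = 0.400), the female hs-KO minus WT value was -0.50 (adjusted p = 0.257), and the sex difference in hs-KO livers and the genotype difference in males had adjusted p = 0.0510 and 0.0548. The other detected probes of Hsd17b11 gave -0.50 and -0.58 in males and -0.73 and -0.44 in females, all without passing. For male minus female they gave -0.69 and -0.42 in WT and -0.46 and -0.56 in hs-KO livers, also without passing. The sexes overlapped in hs-KO livers by both of these probes and in WT by the dimmer one. Of the 7 genes, Hsd17b11 had the lowest correlation of its level with that of Hsd3b5 over the 16 arrays (r = -0.736).

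Cyp17a1, the steroid 17α-hydroxylase and lyase that opens the way to androgens, was a female signal with wide spread. It read 9.33, 2.10 and 7.23 in male WT livers, below detection on all 3 arrays. In female WT livers it read 385, 38.1, 82.6, 1879.9 and 26.3, all detected, the highest again in female WT 4. In male hs-KO livers 1 of 3 arrays detected it, at 92.4, and the others read 9.54 and 2.79. Female hs-KO livers gave 558, 178, 275, 613 and 2128. Females were above males in both genotypes with no overlap, a separation found for 11.5% of all genes in WT and 13.1% in hs-KO livers. The females themselves differed by 71.4-fold in WT and 12-fold in hs-KO livers. Against the lowest signal detected in the male WT arrays, the female WT mean on the log2 scale was at least 6.83-fold higher. This bounds the ratio of group means and leaves out the spread between arrays, of which the lowest female WT array read 26.3. The male minus female value was -3.0 and did not pass (interval -5.20 to -0.81, adjusted p = 0.131). Without female WT 4 the bound was 3.59-fold and the value -2.15 (adjusted p = 0.189). In hs-KO livers the value was -3.84 (interval -6.03 to -1.65, adjusted p = 0.068), and it passed without female WT 4 (adjusted p = 0.013) and with the hs-KO arrays alone (adjusted p = 0.0333). Between female hs-KO and female WT livers the difference was 1.60 (interval -0.30 to 3.5, adjusted p = 0.532), or 2.45 without female WT 4 (adjusted p = 0.111).

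Cyp17a1 is best known from the gonads, and the markers listed for adrenal cortex and gonads were dim in these livers. Of 8 such genes 7 had a probe, their summed intensity was 10.9 to 73.1 on any array, and none was detected on all arrays of a group. Star, Cyp11a1, Cyp11b1, Cyp11b2, Cyp21a1, Nr5a1 and Hsd3b1 are the genes concerned. On at least 1 array of the group, 2 of them were detected in female WT, 1 in male WT, 1 in female hs-KO and 0 in male hs-KO livers. The highest sums were 63.3 in female WT and 73.1 in female hs-KO livers, against 39.3 in male WT and 47.5 in male hs-KO livers. Whether such tissue had a part in the Cyp17a1 signal was not tested.

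**Figure D3:**
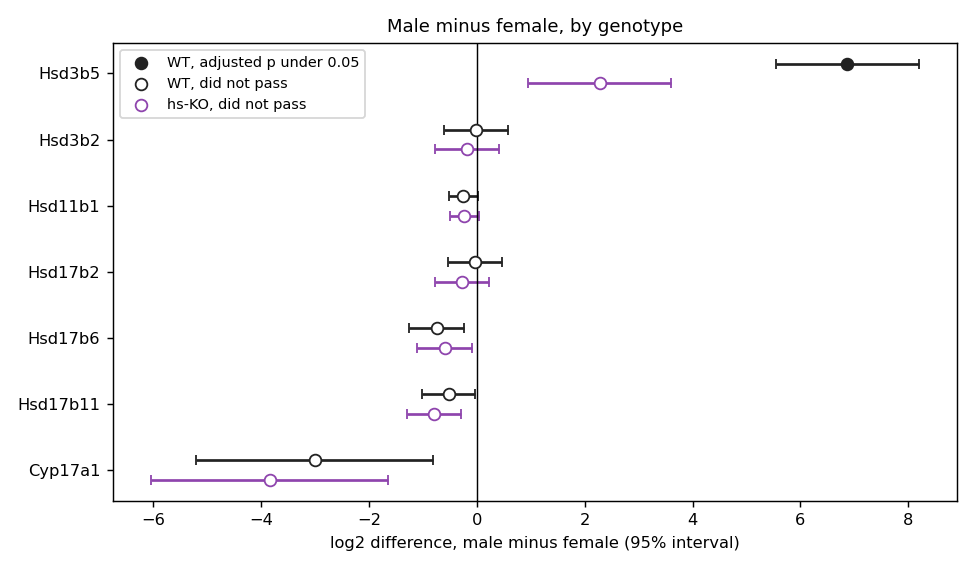
Male minus female log2 difference of the 7 tested genes in WT and in hs-KO livers, with 95% intervals from limma. The filled point passed an adjusted p of 0.05 over 9906 genes, which is Hsd3b5 in WT livers at 6.87, and the other 6 genes lie below 0 in both genotypes by their brightest probes, though the signs of Hsd3b2 and Hsd11b1 turned with other probes and those of Hsd3b2 and Hsd17b2 in WT turned without single arrays.

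**Figure D4:**
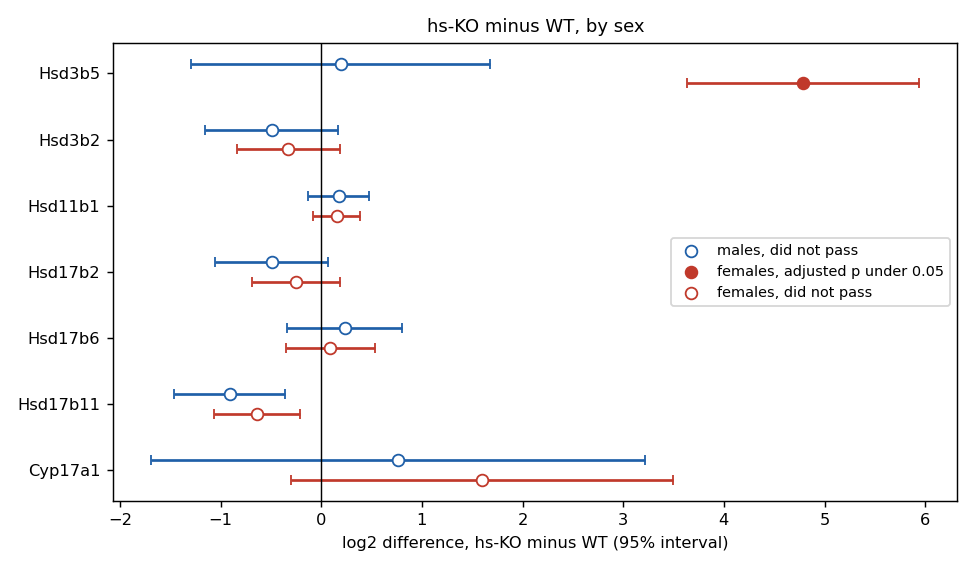
Log2 difference of hs-KO minus WT for the 7 tested genes in males and in females, with 95% intervals from limma. Hsd3b5 in females, at 4.79, is the one filled point, which marks an adjusted p under 0.05, and Hsd17b11 lies below 0 in both sexes without passing.

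Other hydroxysteroid dehydrogenases were looked at as a group of 16 genes, of which 10 were tested. In WT livers 1 was higher in males and 0 lower, in hs-KO livers likewise 1 and 0, between hs-KO and WT males 2 were higher and 0 lower, and between hs-KO and WT females 1 and 0. The shares of all genes called in either direction were 3.71%, 2.36%, 1.5% and 2.37%. Their median log2 differences were 0.04, 0.11, 0.04 and 0.17, beside -0.02, 0.01, 0.02 and 0.00 for all genes. Hsd3b4, a further reductase of the Hsd3b family, had 61.0 ± 29.3 (SD, n = 3) in male WT livers and was not detected on any female WT array. Against the lowest signal detected in the female WT arrays, the male WT mean on the log2 scale was at least 2.71-fold higher, and the difference passed by limma (adjusted p = 0.00277). In hs-KO livers male minus female was 1.55 (adjusted p = 0.0276), where 2 of 5 female arrays detected it, and the latter call was lost without any 1 male hs-KO array or female hs-KO 6, 8 or 9 (adjusted p up to 0.117). Hsd17b7 and Nsdhl act in cholesterol synthesis. Hsd17b7 rose by 1.32 in males (adjusted p = 0.00806), from 2312 ± 439 to 5776 ± 875 (SD, n = 3 each), a call lost when male WT 2 was left out (adjusted p = 0.0549). In females its hs-KO minus WT value was 0.64 and did not pass (adjusted p = 0.0932). Nsdhl rose by 1.00 in males (adjusted p = 0.0385) and by 0.80 in females (adjusted p = 0.0255). Its call in males held in 5 and that in females in 10 of the 16 fits that each left out 1 array (adjusted p up to 0.153 and 0.0629), and was lost in males without any 1 male array, among others, and in females without female WT 1, 2 or 3 or female hs-KO 6, 7 or 10.

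Among 11 aldo-keto and other steroid reductases, which finish the breakdown of ketosteroids, 6 were tested and 1 was called, in the comparison of the sexes in hs-KO livers, where 2.36% of all genes were called. Akr1c14, a 3α-hydroxysteroid dehydrogenase, was higher in males by 0.86 in hs-KO livers (adjusted p = 0.0199), where male livers had 4446 ± 575 (SD, n = 3) and female livers 2466 ± 477 (SD, n = 5), a call lost without any 1 male hs-KO array or female hs-KO 8 (adjusted p up to 0.116). The redox partners and NADPH suppliers that these enzymes depend on held 4 tested genes of 9, and 0 were called in any of the 5 comparisons by limma, with at most 2 at an unadjusted p under 0.05. Over these comparisons 0.0606% to 3.71% of all genes were called, and 8.6% to 17.4% passed the unadjusted threshold.

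Genes were ranked by Pearson's r of their log2 level with that of Hsd3b5 over the 16 arrays, which share 4 groups, so r is given as a description. The 5 highest were Slc22a30 (r = 0.947), Slc22a28 (r = 0.938), Slco1a1 (r = 0.898), Slco1a4 (r = 0.894) and Tpst1 (r = 0.893). The first 4 code for transporters of organic anions and Tpst1 for a protein sulfotransferase. Slc22a30 had 3279 ± 513 in male WT, 996 ± 143 in female WT, 3080.5 ± 351 in male hs-KO and 1718 ± 139 in female hs-KO livers (SD, n = 3 and 5 for males and females). These genes were chosen for their likeness to Hsd3b5 on the same arrays, so their group order and the values that follow are a description and no independent support. Like Hsd3b5, Slc22a30 was highest in males, lowest in female WT livers and between them in female hs-KO livers, over a narrower range. Its hs-KO minus WT value in females was 0.78, beside 0.74 for Slc22a28, 1.12 for Slco1a4, 1.78 for Slco1a1 and 0.41 for Tpst1. Those of Slco1a1 and Tpst1 did not pass (limma, adjusted p = 0.0582 and 0.116), and Slco1a1 was detected on 4 of 5 female WT arrays. The call of Slco1a4 (adjusted p = 0.0255) was lost without female hs-KO 8 or 10 (adjusted p up to 0.0613).

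**Figure D5:**
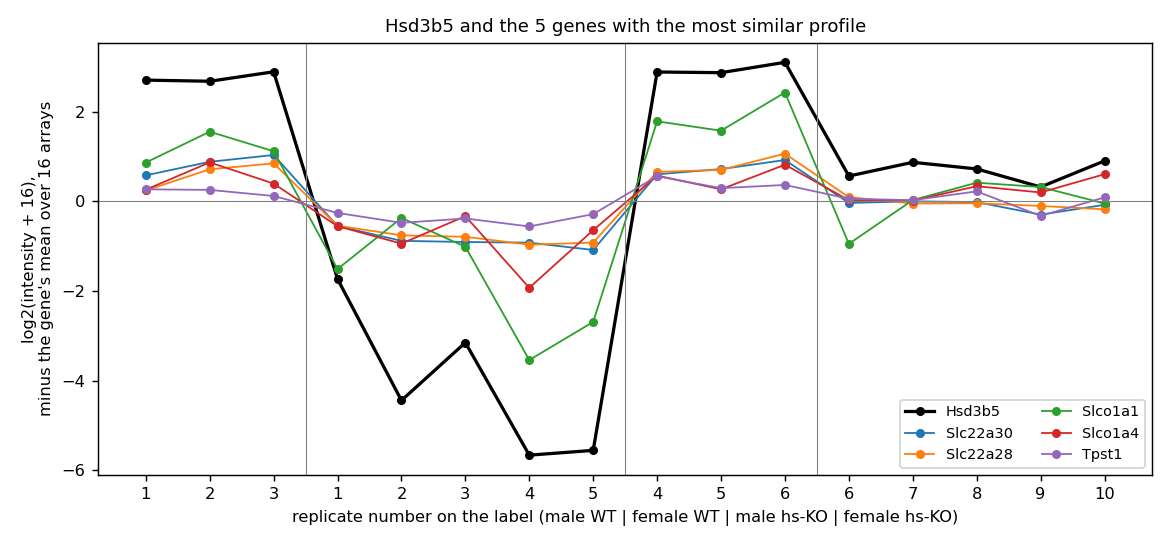
Log2(intensity + 16) of Hsd3b5 and of the 5 genes with the highest correlation with it, each minus its mean over the 16 arrays, by array within the 4 groups. All 6 lines are low in the female WT arrays, and Hsd3b5 in black spans the widest range.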

How the data were processed

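The value table of the authors holds, per the labels and the values, background-subtracted and quantile-normalized intensity on a linear scale for 45281 probes, and the submitters' processing notes name lumi with no version. The background method and its settings are not given in the sources used here. Genes came from the platform annotation (34885 probes with 1 gene, 18 with several, 10378 with none). A deposited table of non-normalized signals was not used, since the names of its 32 columns match no sample label. Levels were log2(intensity + 16), with intensities below 0 taken as 0. A probe was detected above 3 times the root mean square of its array's values below 0 and was kept when detected on at least 3 of 16 arrays (14946 probes), and the brightest kept probe stood for its gene. limma 3.58.1 (R 4.3.3, lmFit and eBayes) fitted 1 mean per group over all arrays, with 12 residual degrees of freedom and Benjamini-Hochberg adjustment over 9906 genes. The number of arrays limits the precision. The fit was tested on simulated data. Promoters were aligned locally with Biopython 1.88. Where a group was not detected, a fold is given as a bound: the bright group's mean on the log2 scale against, per dim array, the lowest detected signal. It bounds the ratio of the means of these samples and is no confidence limit. The genes described are all those listed with a probe, up to 4 called genes of each pathway list by size of difference, the 5 most correlated with Hsd3b5, and Xist and Rxra. The genes and lists were chosen with earlier results of these data known. Alternatives were other offsets, filters, probe choices, array weights, fits to the groups compared alone, a trend in the prior and leaving out arrays.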

Additional observations from a re-analysis of the deposited data

Results flagged for a closer look

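In 3 of the 14 groups of 5 arrays tested, 1 array stood apart from the rest, where chance would set apart about 5% of groups. The gap to the nearest array, as a share of the group's range on the log2 scale, was 0.840 for Hsd3b2 in female WT 4 (intensity 2358), 0.739 for Hsd11b1 in female hs-KO 8 (intensity 27603) and 0.732 for Hsd17b11 in female WT 4 (intensity 1064). Female WT 4 was thus the lowest of its group for Hsd3b2 and the highest for Hsd17b11.

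The sex difference itself differed between the genotypes at an unadjusted p under 0.05 in the interaction term for a pair of probes. For Hsd3b5 (ILMN_1234449) the value was -4.59 (adjusted p = 0.0891, limma), and for the Hsd3b2 probe ILMN_1214838 it was -1.21 (adjusted p = 0.291). Neither passed after adjustment.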

How the results depend on the processing

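Hsd3b5 was called in WT livers (5.87 to 7.47) and between the female genotypes (4.16 to 5.38) under all alternatives run. In hs-KO livers it passed for male minus female in 6 of 25 alternatives (adjusted p = 4.72e-05 to 0.215), and its interaction in 3 of 24 (adjusted p = 0.000773 to 0.285). With array weights, 3 of the 7 genes were called in WT, 3 in hs-KO livers, 1 between hs-KO and WT males and 1 in the interaction, where male WT 3 had the highest weight (4.64, against 0.547 and 0.753 for the other male WT arrays) and female WT 4 the lowest (0.295). With an offset of 50, 1 was called in hs-KO livers and 1 in the interaction, and with only the 2 groups compared 2 were called in hs-KO livers. Leaving out each array in turn gave 0 to 2 in hs-KO livers and 0 to 1 in the interaction, and leaving out female WT 2 and 4 together, an alternative chosen after seeing the data, gave 2 in hs-KO livers.

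Over all genes, the called counts with array weights were 1405 in WT, 501 in hs-KO livers, 1611 between the male genotypes and 39 in the interaction, against 368, 234, 149 and 6. With only the groups compared they were 171 in WT and 137 between the female genotypes, which had 156 without female WT 2 and 4, against 235. Leaving out each array gave 169 to 398 in WT, 116 to 275 in hs-KO livers, 74 to 192 between the male genotypes and 3 to 6 in the interaction, with the lowest counts without male WT 3, male hs-KO 5, male WT 2 and male WT 3.

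Male and female WT arrays of the same replicate number, 1 to 3, had correlations of their deviations of 0.308, 0.166 and -0.022. Arrays of unlike numbers were not compared, so these values cannot decide whether the numbers pair them. With the replicate block on these arrays 75 genes and 1 of the 7 were called.

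Signs turned only for values that had not passed. For male minus female in WT, Hsd3b2 gave 0.80 by the mean of its probes, 2.14, 0.79 and 0.29 by single probes and -0.33 to 0.24 without each array, Hsd11b1 gave 0.50 by its dim probe, and Hsd17b2 gave -0.22 to 0.081 without each array. In hs-KO livers Hsd3b2 gave 0.26 by the mean and 0.94, 0.11 and 0.16 by single probes, and the dim Hsd11b1 probe 0.059. Between male genotypes Hsd3b2 gave 0.088 by 1 probe, Hsd11b1 -0.19 by the dim probe, and Cyp17a1 -0.0060 to 1.26 without each array. Between female genotypes Hsd3b2 gave 0.26 by the mean and 0.71, 0.44 and 0.22 by single probes, and Hsd17b6 -0.070 to 0.24 without each array. In the interaction Hsd3b2 gave 0.017 with weights, 0.012 without female WT 2 and 4, and -0.42 to 0.15 without each array, Hsd11b1 -0.10 by the mean, -0.44 by the dim probe and -0.069 to 0.10 without each array, Hsd17b6 -0.074 to 0.33 without each array, and Hsd17b11 0.23 by 1 probe. The cause of these changes was not tested. Signals near the detection threshold limit Cyp17a1 in males and Hsd3b5 in female WT livers.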

Other observations

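Of 10 listed receptors and carriers of steroids 5 were tested, and 2 were lower in male than in female WT livers and 1 in hs-KO livers, where 3.71% and 2.36% of all genes were called in either direction. Pgrmc1, Pgrmc2 and Nr3c1 did not pass between the sexes in WT. Esr1, the estrogen receptor alpha, had 223 ± 35.5 (SD, n = 3) in male and 641 ± 45.7 (SD, n = 5) in female WT livers, a male minus female value of -1.47 (adjusted p = 0.000105, limma), and of -0.84 in hs-KO livers (adjusted p = 0.0193), the latter lost without male hs-KO 4 or 5 or female hs-KO 8 (adjusted p up to 0.107). Serpina6, the corticosteroid-binding globulin, had -1.58 in WT (adjusted p = 0.00359), and it rose by 1.40 from WT to hs-KO males (adjusted p = 0.0331), a call lost without male WT 2 or 3 or any 1 male hs-KO array (adjusted p up to 0.176). Fkbp5, a glucocorticoid-induced co-chaperone, was the 1 called gene of 7 tested from its list, with -1.77 in WT livers (adjusted p = 0.00873, or 0.0646 without male WT 3), where 3.71% of all genes were called.

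Of 10 tested genes of lipid droplets, where Hsd17b11 is found, 1 was lower in male than in female WT livers and 1 fell in hs-KO females. Of all genes, 3.71% and 2.37% were called in either direction in these comparisons. Pnpla3, a lipase of lipid droplets, had -3.60 for male minus female in WT livers (adjusted p = 0.00609, or 0.0591 without male WT 2), and Plin5, a coat protein of the droplet, fell by 1.14 in hs-KO females (adjusted p = 0.0224, or up to 0.0539 without female WT 1 or female hs-KO 8). Of 9 tested genes of growth hormone signalling and its sex-dependent regulators 0 were called in any of the 5 comparisons by limma, with at most 2 at an unadjusted p under 0.05. The shares of all genes were 0.0606% to 3.71% called and 8.6% to 17.4% at the unadjusted threshold.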
